A study of Homo sapiens with 32 samples.

Results

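SK-N-BE(2)C neuroblastoma cells were profiled for H3K27ac by ChIP-seq, and 10391 of the 92108 deposited regions were start-site regions that carried the mark throughout the experiment. A region was taken when it contained a protein-coding transcription start site (GENCODE release 44, hg19), was under 12000 bases wide and overlapped by at least 1 base a broad peak in each of the 16 ChIP libraries. Of all regions, 15033 held a start site, 13807 of these were under the width limit, and 3416 of those had a peak in some libraries but not in all. The members were thus chosen by the peak calls of all 16 libraries, so that the presence of the mark in every group is a property of the choice and not a result. The members held start sites of 10892 of the 19807 gene symbols with a protein-coding start site (55.0%).

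SK-N-BE(2)C is an established MYCN-amplified human neuroblastoma line of adrenergic type. Cultures received vehicle (DMSO), palbociclib (PB, 1 µM), retinoic acid (RA) or both drugs (PB+RA) over 5 days, with 4 ChIP libraries per group and input libraries as the reference for peak calling. The libraries of a group are separately plated passages according to the methods. PB inhibits the kinases CDK4 and CDK6, which release E2F transcription factors from RB, and RA activates nuclear retinoid receptors and is used to differentiate neuroblastoma. All groups are a single cell line in culture, so no value below speaks to differences between tumours. Of 15 adrenergic neuroblastoma markers, 13 had a start-site region with a peak in all 16 libraries (among them HAND2, GATA3, TH and DBH), and 3 of these regions were members. Of 15 immune markers 2 had one (CD14 and CD68), and of 11 endothelial markers none did.

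Acetylation of lysine 27 of histone H3 is written by the acetyltransferases p300 and CBP and sits on the nucleosomes beside active start sites and on active enhancers. At promoters it tends to form a block around a nucleosome-free stretch of CpG-rich DNA in which general factors such as SP1, ETS proteins and NFY bind, and most genes that every cell needs carry it in every tissue. At cell cycle genes the same promoter stretch holds E2F sites, used in G1 and S phase, or pairs of CCAAT boxes and a cell cycle homology region (CHR), used in G2 and M phase and bound by the DREAM and MuvB complexes.

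The 150 bases before the annotated start site are shown for 7 members. The results below turn on cell cycle genes, some of whose promoters hold these elements, and a proteasome gene is described beside them. Letters in capitals are motif matches found on either strand, and each sequence runs 5′ to 3′ on the strand of its gene in hg19.
MKI67, chr10:129924688-129924837, minus strand: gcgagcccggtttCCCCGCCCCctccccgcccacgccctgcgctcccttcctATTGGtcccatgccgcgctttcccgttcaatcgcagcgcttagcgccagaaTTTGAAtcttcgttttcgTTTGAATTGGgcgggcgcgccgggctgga
CCNA2, chr4:122745039-122745188, minus strand: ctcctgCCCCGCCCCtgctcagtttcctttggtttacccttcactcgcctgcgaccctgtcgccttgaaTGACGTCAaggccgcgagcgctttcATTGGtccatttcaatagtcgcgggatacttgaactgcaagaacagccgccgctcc
GINS2, chr16:85722561-85722710, minus strand: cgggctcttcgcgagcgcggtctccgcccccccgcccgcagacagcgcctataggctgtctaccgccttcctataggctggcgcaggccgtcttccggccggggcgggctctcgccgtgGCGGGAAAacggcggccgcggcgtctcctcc
E2F2, chr1:23857726-23857875, minus strand: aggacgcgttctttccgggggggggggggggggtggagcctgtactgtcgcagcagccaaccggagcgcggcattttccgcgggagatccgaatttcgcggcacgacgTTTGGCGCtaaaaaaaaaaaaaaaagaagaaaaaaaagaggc
CHAF1B, chr21:37757540-37757689, plus strand: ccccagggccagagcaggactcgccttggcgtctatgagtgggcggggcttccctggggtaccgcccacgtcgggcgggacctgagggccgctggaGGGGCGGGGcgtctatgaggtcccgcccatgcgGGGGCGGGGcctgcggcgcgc
PCNA, chr20:5100605-5100754, minus strand: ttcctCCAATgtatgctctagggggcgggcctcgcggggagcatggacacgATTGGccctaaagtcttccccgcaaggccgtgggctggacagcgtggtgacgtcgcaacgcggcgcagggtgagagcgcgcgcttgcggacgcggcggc
PSMB1, chr6:170862396-170862545, minus strand: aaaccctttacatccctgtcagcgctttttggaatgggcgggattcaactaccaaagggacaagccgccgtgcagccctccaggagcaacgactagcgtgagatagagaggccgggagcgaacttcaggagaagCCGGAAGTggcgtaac

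The capitals in the MKI67 sequence are a GC box (GGGGCGGGG, here on the opposite strand), CCAAT boxes whose first letters lie 98 and 24 bases before the start site (printed as their complement ATTGG), and CHR matches (TTTGAA) that begin 47 and 29 bases before it. The last CHR and the last CCAAT box of MKI67 share 1 base. CCNA2 has a GC box, a cAMP response element (CRE, TGACGTCA) 81 bases before the start site and a CCAAT box 56 bases before it. GINS2 and E2F2 each have an E2F match (TTTCCCGC, TTTGGCGC or TTTCGCGC), which begins 31 and 42 bases before the start site. CHAF1B has a pair of GC boxes, PCNA a pair of CCAAT boxes 145 and 99 bases before its start site, and PSMB1 an ETS match (CCGGAAGT) 16 bases before it.

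Over windows from 250 bases before to 50 bases after the canonical start site, searched on both strands, an ETS match was present in 10.0% of 10410 start sites in members and in 1.69% of 9061 start sites elsewhere, against 6.15% of all 19471. A GC box was present in 30.5% of windows in members and 18.4% elsewhere (24.9% of all), and an E-box (CACGTG) in 10.6% and 6.61% (8.76% of all). A TATA match (TATAAA, in the 45 to 15 bases before the start) went the other way, with 1.64% in members and 7.82% elsewhere (4.52% of all). In the 86 windows of members from lists of DNA replication and mitosis genes, 69.8% held a CCAAT box, 41.9% a CHR match and 26.7% an E2F match, where all windows held 36.0%, 11.4% and 3.72%. In 148 windows of ribosomal protein, proteasome and respiratory complex I members an ETS match was present in 17.6%. These are shares of windows with the letters and do not show binding.

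Members were rich in CpG and narrower than other constitutive regions. Their median width was 3614 bases (quartiles 2558 and 5438.5), their median GC content 52.6% and their median CpG observed over expected ratio 0.579. The 13577 equally constitutive regions of the same width limit without a start site had 4150 bases (quartiles 2792 and 6206), 45.3% and 0.228. Start-site regions under the width limit with a peak in 1 to 15 libraries had 1573 bases, a higher GC content (59.9%) and a ratio of 0.458. A median of 3 annotated start sites lay in a member, with 39 at most, and 1588 members held start sites of more than 1 gene. In 1336 members (12.9%) start sites faced both ways. A canonical start site, the one that the annotation marks as the gene's main one, lay in 9168 members (88.2%), and 1223 held alternative start sites only. Just inside the width limit stood SRRM3 (11993 bases) and ZC3H12A (11996 bases), with DMSO group means of 10.40 and 9.58 on the authors' log2 concentration scale, and just outside it NT5E (12008 bases) and NPB/PCYT2 (12021 bases), with 10.68 and 9.54. The 428 start-site regions with a peak in 15 libraries, just short of the rule, had a median concentration of 6.21, against 8.54 over members. This concentration is not divided by width.

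Of the 16 libraries 4 stood apart, which bears on the results below. The log2 fold enrichment of members over constitutive regions without a start site was 1.26, 1.43, 1.79 and 1.53 in DMSO replicates 1 to 4, 1.33, 1.32, 1.01 and 0.85 with PB, 1.33, 1.35, 1.36 and 1.36 with RA, and 1.27, 1.37, 0.86 and 1.34 with PB+RA. PB replicates 3 and 4 and PB+RA replicate 3 were low and DMSO replicate 3 was high. The standard deviation of log2 enrichment over constitutive regions was likewise smallest in the low libraries (0.66, 0.59 and 0.67) and largest in DMSO replicate 3 (0.995). The number of peaks ran from 64516 to 104392 per library, and read depth is unknown. The counts over all members, and those of the gene lists where they moved, are therefore given also without these 4 libraries. This choice was made after the values were seen and leaves 3 DMSO, 2 PB, 4 RA and 3 PB+RA libraries. It rests on the enrichment of members itself, so that leaving these libraries out makes falls of members smaller by construction. The median log2 difference of enrichment over members went from −0.23 to −0.065 with PB and from −0.18 to −0.050 with PB+RA. Calls lost in this way are therefore no independent check. What set these libraries apart was not tested.

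**Figure D1:**
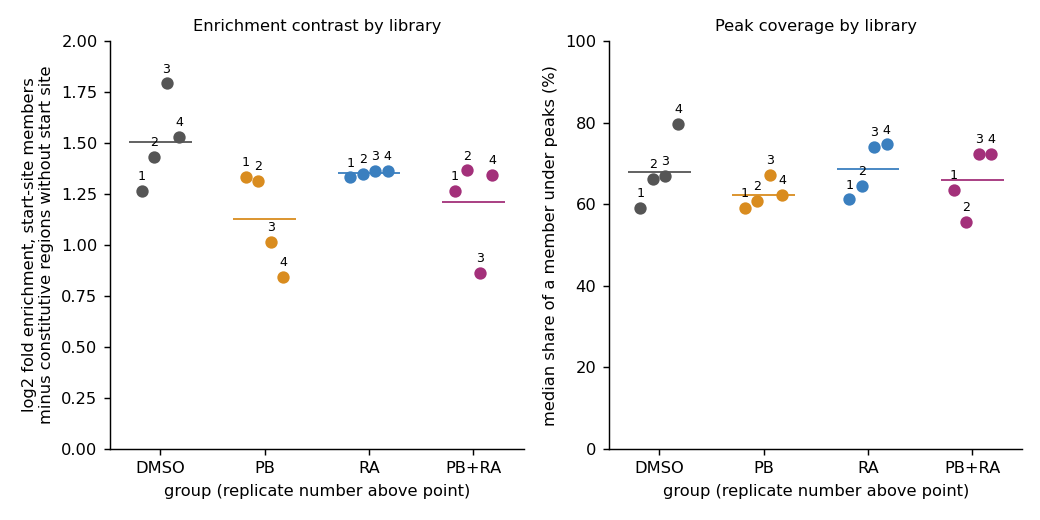
Left, the difference in median log2 fold enrichment between start-site members and constitutive regions without a start site, with a point per library (replicate number above it) and a line at the group mean; right, the median share of a member's bases under peaks (%). The RA libraries sit at 1.33 to 1.36 on the left, PB replicate 4 and PB+RA replicate 3 at 0.85 and 0.86, and DMSO replicate 3 at 1.79.

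The authors' concentration is the group mean of log2 normalized read counts over a region, not divided by its width, and was deposited without replicates. On this scale members lay above the other constitutive regions and were lower in each treated group than in DMSO. Their median concentration was 8.72 in DMSO, 8.36 after PB, 8.53 after RA and 8.58 after PB+RA, where constitutive regions without a start site had 7.32, 7.34, 7.25 and 7.39. The median difference from DMSO over members was −0.36 after PB, −0.20 after RA and −0.14 after PB+RA. Over all 92108 regions it was −0.09, −0.0093 and −0.016, and over the constitutive regions without a start site 0.0066, −0.097 and 0.065. The DMSO libraries are the reference in all 3 comparisons, so these differences share their error. Start-site regions with a peak in fewer than 16 libraries had medians of −0.67, 0.11 and −0.56, and they were set apart by the same peak calls, so no test was made.

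A concentration more than 0.5 below DMSO was found in 3758 members with PB (36.2%, against 26.8% of all regions), 1279 with RA (12.3%, against 21.5%) and 2654 with PB+RA (25.5%, against 31.7%). A concentration more than 0.5 above DMSO was found in 192 members with PB (1.85%, against 21% of all regions), 459 with RA (4.42%, against 27.9%) and 961 with PB+RA (9.25%, against 32.1%). All 3 differences lay within 0.5 in 4855 members (46.7%), against 18.6% of all regions, and the median range over the 4 groups was 0.58, against 1.06. A narrow range is partly fixed by the rule, which left out every region whose peak was lost in any library. When each comparison was centred within classes of GC content, formed over all regions, the medians over members became −0.04 (PB), −0.06 (RA) and, turning sign, 0.18 (PB+RA). Members have a higher median GC content than all regions (52.6%, against 47.1%). This centring therefore cannot tell GC content from the presence of a start site.

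**Figure D2:**
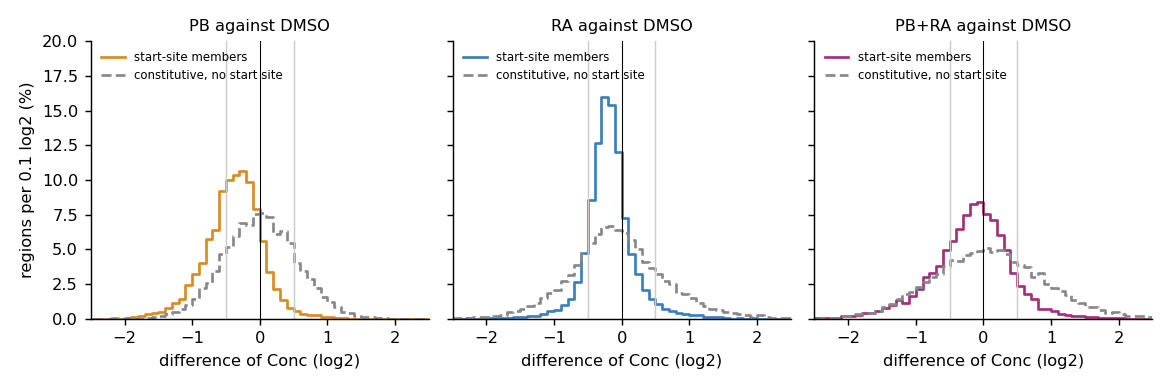
Share of regions (%) per 0.1 step of the difference in log2 concentration from DMSO, for members (solid) and for constitutive regions without a start site (dashed), in a panel per treatment with grey lines at −0.5 and 0.5. The members' curve lies to the left with PB (median −0.36, against 0.0066) and less so with RA (−0.20, against −0.097) and PB+RA (−0.14, against 0.065).

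To set replicates against each other, the authors' fold enrichment of the peaks over each region was averaged in each library and expressed relative to the median constitutive region of that library, here called relative enrichment (1 is that median region). Differences were tested with limma over the 26508 regions that had a peak in all libraries, and a member was called when its Benjamini-Hochberg adjusted p was under 0.05 and its log2 difference beyond 0.5. Being relative, these values cannot show a change of total acetylation. With PB, 56 members rose (0.539%, against 2.26% of all regions tested) and 978 fell (9.41%, against 4.56%). With RA, 144 rose (against 4.03% of all) and 199 fell (against 3.21%). With PB+RA, 254 rose (against 7.71% of all) and 1601 fell (15.4%, against 10.1%). In none of the 3 comparisons were 8152 members called (78.5%), and 62 were called in all 3.

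On this relative scale, constitutive regions without a start site were called in the other proportion. With PB 489 were higher and 198 lower (3.60% and 1.46%), with RA 733 and 503 (5.40% and 3.70%) and with PB+RA 1511 and 872 (11.1% and 6.42%). Members and these regions make up most of the regions on whose median each library was centred. Lower members therefore tend to raise these regions by construction, and the counts alone do not show a gain. The authors' concentration was not centred in this way. On it the median difference of these regions from DMSO was 0.0066 with PB and 0.065 with PB+RA, but −0.097 with RA. Without the 4 libraries, the members called higher and lower were 54 and 259 with PB, 204 and 172 with RA, and 395 and 1113 with PB+RA, of which 24 and 216, 124 and 134, and 220 and 1022 were the same members. The count that fell with PB also hung on single libraries, at 456 without DMSO replicate 3, 585 without DMSO replicate 4, 484 without PB replicate 3, 425 without PB replicate 4 and 1539 without PB+RA replicate 3. The count that fell with RA was 131 without DMSO replicate 3, 118 without RA replicate 1 and 128 without RA replicate 2, and the count that rose with RA was 93 without DMSO replicate 2. Other scalings changed the split: higher and lower members were 158 and 448 with PB, 195 and 174 with RA and 515 and 949 with PB+RA after centring within GC classes, and 162 and 536, 160 and 120, and 452 and 1163 after quantile normalization. Without any centring they were 33 and 307 with PB and 338 and 852 with PB+RA, and with enrichment multiplied by the share of the region under peaks 249 and 1156 with PB.

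By the plainer measure of libraries that do not overlap, all 4 PB libraries lay above all 4 DMSO libraries in 169 members (against 7.22% of all regions tested) and below in 1667 (against 8.47%). For RA these counts were 330 (against 8.3%) and 833 (against 8.76%), and for PB+RA 371 (against 11.7%) and 1658 (against 12%).

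Members of higher GC content were lower against DMSO with PB and with PB+RA. Over 5 classes of equal size, from the members with the lowest GC content (under 47.3%) to those with the highest (over 58.3%), the median concentration difference with PB went from −0.09 over −0.24, −0.37 and −0.50 to −0.73, and with PB+RA from 0.15 over −0.02, −0.13 and −0.31 to −0.50. With RA it stayed between −0.14 and −0.22. The share of members called lower with PB went from 3.42% to 21.5%, and without the 4 libraries from 1.06% to 5.68%; with PB+RA it went from 6.35% to 29.7%, and without them from 5.10% to 20.3%. The peaks themselves differed in base composition between groups, since the median GC content of regions with a peak was 48.4 to 49.5% in DMSO libraries, 46.3 to 48.1% with PB, 47.8 to 48.6% with RA and 45.2 to 46.3% with PB+RA. The part of base composition in these results was not tested, and centring within GC classes cannot tell it from that of start sites.

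**Figure D3:**
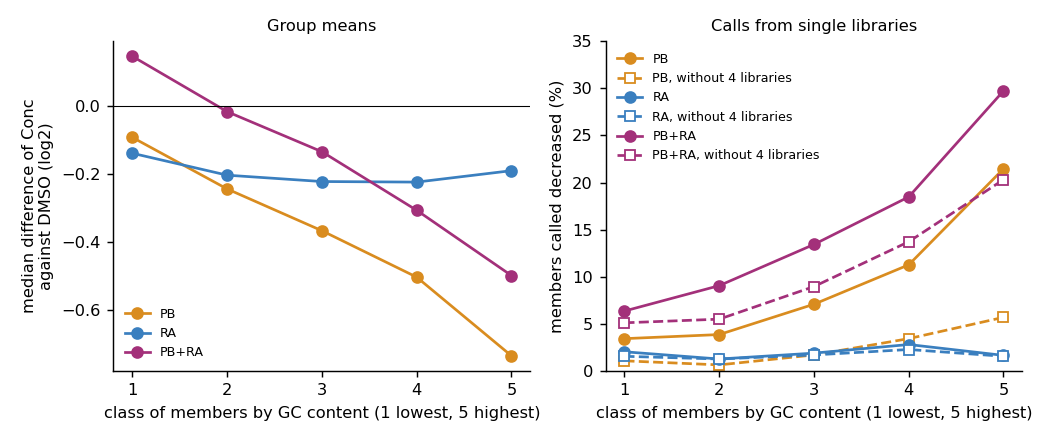
Members in 5 classes of GC content (1 lowest, 5 highest). Left, the median difference of the group means from DMSO (log2); right, the share of members called lower (%), with all 16 libraries (solid) and without 4 (dashed). PB falls from −0.09 to −0.73 and its share of members called lower climbs from 3.42% to 21.5%, or from 1.06% to 5.68% without the 4 libraries, while RA is level.

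The promoters of the called members had matching compositions. The windows around the start sites of members that fell with PB+RA had a median GC content of 71.1%, against 65.8% in members not called and 59.1% in members that rose. A GC box was present in 40.7% of the 1552 windows of members that fell and in 28.9% of the 8682 not called, and an ETS match in 3.54% and 11.3%. Of members with start sites facing both ways 119 of 1336 (8.91%) fell with PB+RA, and of members with start sites on 1 strand 1482 of 9055 (16.4%), against 10.1% of all regions tested. This difference was not tested, and without the 4 libraries these shares were 5.09% and 11.5%. Among members with only alternative start sites 87 of 1223 (7.11%) rose with PB+RA, beside 167 of 9168 (1.82%) with a canonical start site (against 7.71% of all regions tested). With PB, 31 (2.53%) beside 25 (0.273%) rose (against 2.26%). The shares with only alternative start sites thus lay near those of all regions tested, and the shares with a canonical one below. Without the 4 libraries the shares that rose were 7.44% and 3.32% with PB+RA and 1.47% and 0.393% with PB.

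Members at genes of basic cellular machinery had few calls with PB+RA, whereas some lists lay near the share of all regions tested with PB or RA (lower in 4.56%, 3.21% and 10.1% in the order PB, RA, PB+RA). Of 74 members at genes of cytosolic ribosomal proteins none rose and 1, 2 and 2 fell with PB, RA and PB+RA, and of 71 at mitochondrial ribosome genes none rose and 3, 0 and 5 fell (4.23% with PB and 7.04% with PB+RA). Of 47 proteasome members, counting its assembly factors, 1 rose and 1 fell with PB+RA and none was called with either drug alone, and of 28 at ATP synthase and cytochrome oxidase genes and 11 at RNA polymerase II subunit genes none was called in any comparison. Of 37 complex I members 2 fell with RA (5.41%) and 1 with PB+RA. Of 56 spliceosome members 1, 2 and 2 fell (3.57% with RA), of 53 at translation factor genes 1 rose and 3 fell, all with PB+RA, and of 45 at Mediator and TFIID genes 1 fell with PB and 2 with PB+RA. Of 15 members at replication-dependent histone genes, which held 28 of the list's 63 genes, none was called. Another 24 of these genes lay only in wider regions. With centring within GC classes 3 of the 15 fell with PB+RA. All 4 RA libraries lay below all 4 DMSO libraries in 3 of the 15 (against 8.76% of all regions tested). All 4 PB+RA libraries did so in 3 (against 12%). Without the 4 libraries, no ribosomal protein member fell with PB or RA, mitochondrial ribosome members fell in 0, 0 and 2 cases, and no translation factor, Mediator or TFIID member fell with PB+RA.

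Mostly short of a call, several of these lists leaned lower with RA. All 4 RA libraries lay below all 4 DMSO libraries in 13 of the 74 ribosomal protein members, 12 of the 71 mitochondrial ribosome members and 8 of the 37 complex I members, against 8.76% of all regions tested, and the medians of the concentration difference were −0.37, −0.34 and −0.32, against −0.20 over all members. The median standard error of a log2 difference over members was 0.171, and an absent call does not show that a member was unchanged.

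PSMB1/TBP, a member from which a core proteasome subunit and the TATA-binding protein are transcribed in opposite directions (chr6:170860370-170865185), is shown as an example. Its relative enrichment was 1.97, 2.21, 2.21 and 1.90 in DMSO, 1.93, 1.81, 2.05 and 1.93 with PB, 2.10, 1.86, 2.04 and 2.04 with RA, and 2.03, 2.43, 2.33 and 2.46 with PB+RA. The groups overlapped, and the log2 differences were −0.10, −0.04 and 0.16 (SE 0.12 each, limma adjusted p = 0.636, 0.891 and 0.358). RPS26, a protein of the small ribosomal subunit, had 2.18, 2.84, 2.57 and 2.49 in DMSO and 3.03, 2.52, 3.86 and 3.38 with PB+RA, a difference of 0.33 ± 0.16 (SE, adjusted p = 0.137). Of 21 members at genes often used as references for expression, 2 fell with PB (9.52%, against 4.56% of all regions tested). With PB+RA 6 fell (28.6%, against 10.1%) and 1 rose (4.76%, against 7.71%). The member that rose, ATP7A/PGK1, holds an alternative start site of PGK1 only. Without the 4 libraries, 2 fell with PB+RA and none with PB. TFRC, the transferrin receptor, was among those that fell with PB+RA, by 0.63 on the log2 scale (SE 0.16, adjusted p = 0.0052), whereas PGK1's own member differed by −0.03 ± 0.16 (adjusted p = 0.902).

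The 6 members with the highest mean concentration over the 4 groups, which is not divided by width, included those at PTGER2, CHRNA3, INSM2, KMT2E and HDGF. PTGER2 is a receptor for prostaglandin E2 and CHRNA3 a nicotinic acetylcholine receptor subunit of sympathetic neurons. The group means of these 5 in DMSO were 11.58, 11.24, 12.20, 11.49 and 11.69, and none was called in any comparison with all 16 libraries and the main scaling. INSM2 was called lower with RA without the 4 libraries (−0.505, limma adjusted p = 0.0346). With enrichment multiplied by the share of the region under peaks, INSM2 was called lower with RA (−0.91) and PB+RA (−0.85). Under that measure CHRNA3 was called higher with RA (0.65) and PB+RA (0.72). CHRNA3 had relative enrichments of 3.92, 4.80, 5.14 and 4.31 in DMSO and 7.46, 6.31, 4.17 and 5.60 with PB+RA. The PB+RA library that stood apart, replicate 3, was the lowest of its group and overlapped DMSO, and the difference was 0.35 ± 0.23 (SE, adjusted p = 0.286) with all libraries and 0.57 (adjusted p = 0.01) without the 4.

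Among the 10% of members with the highest level, those with the smallest ranges of group means included STARD4, which carries cholesterol between membranes (10.36, 10.43, 10.36 and 10.41 in DMSO, PB, RA and PB+RA), BBX, CCDC71L and ARID5B. They were chosen for that range, which is given as a description. In single libraries STARD4 had 1.92, 1.87, 1.76 and 1.74 in DMSO, 1.68, 2.04, 1.83 and 1.65 with PB, 2.14, 2.04, 1.65 and 1.63 with RA and 1.83, 1.69, 1.84 and 2.01 with PB+RA. All 4 groups overlapped at STARD4. CCDC71L was less even than its group means, with 1.20 to 3.14 among the PB+RA libraries.

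Members at cell cycle genes were called lower with PB+RA more than with PB, and hardly with RA; no test compared these counts. Of 47 members at DNA replication genes (43 of the list's 45 genes) none rose in any comparison, and 11 fell with PB (23.4%, against 4.56% of all regions tested), 1 fell with RA and 24 fell with PB+RA (51.1%, against the 10.1% of all regions tested). Of 46 members at mitosis genes (44 of 44) none rose, and 10, 2 and 25 fell (21.7% with PB and 54.3% with PB+RA). Their median concentration differences were −0.60, −0.42 and −0.80 for replication and −0.61, −0.39 and −0.83 for mitosis. Without the 4 libraries, 4 replication and 1 mitosis members fell with PB, and 18 and 24 with PB+RA. With centring within GC classes 19 replication and 26 mitosis members fell with PB+RA, after quantile normalization 13 and 16, and without centring 15 and 16.

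**Figure D4:**
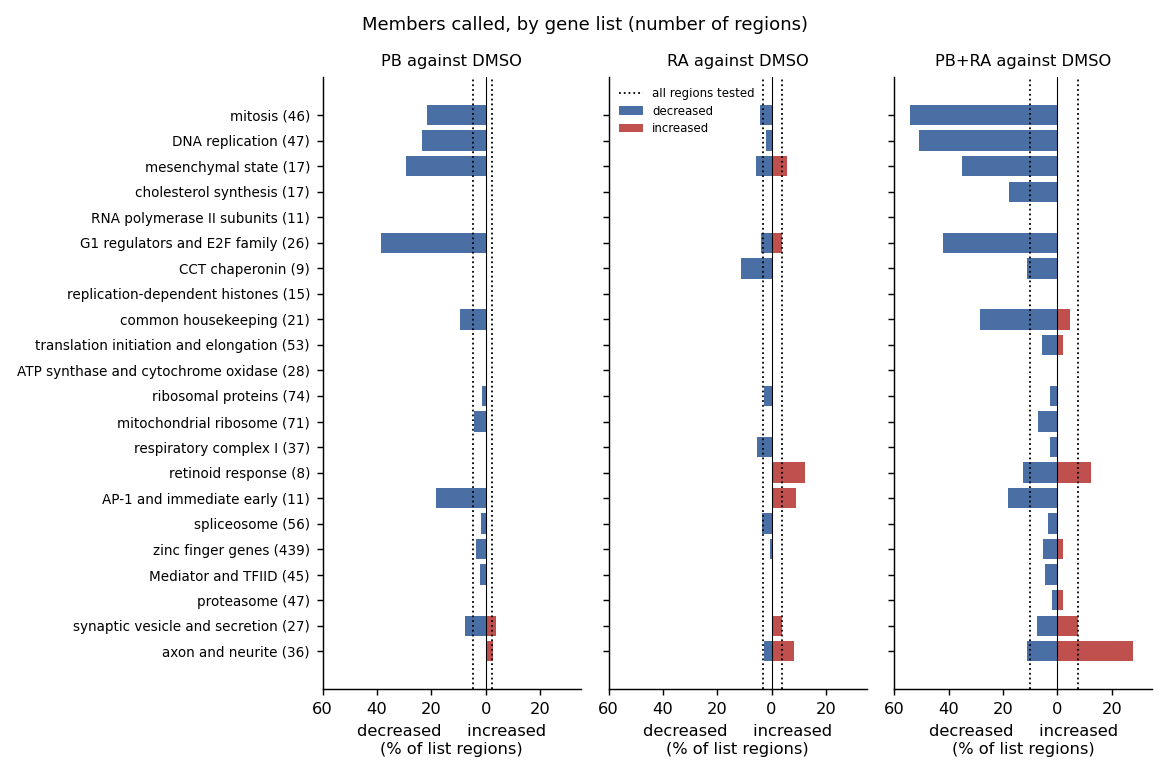
Share of each gene list's members called lower (to the left) and higher (to the right) against DMSO (%), with the number of members in brackets and dotted lines at the share of all regions tested. With PB+RA, 51.1% of DNA replication and 54.3% of mitosis members were called lower, where 2 of 74 ribosomal protein members were; axon and neurite genes had the most members called higher, 10 of 36.

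MKI67, the proliferation antigen Ki-67 that coats mitotic chromosomes, had relative enrichments of 2.92, 3.18, 3.79 and 2.95 in DMSO, 1.87, 1.82, 1.23 and 1.24 with PB, 2.32, 2.59, 2.42 and 2.35 with RA and 1.10, 1.51, 1.15 and 1.25 with PB+RA. No PB, RA or PB+RA library reached the lowest DMSO library, and its level in every treated library was still above that of the median constitutive region. The fall was 1.08 on the log2 scale with PB (log2 difference −1.08 ± 0.16 SE, adjusted p = 0.000577, and −0.71 without the 4 libraries) and −1.36 ± 0.16 with PB+RA (adjusted p = 6.26e-06, and −1.24), while RA gave −0.40 ± 0.16 (adjusted p = 0.121).

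CCNA2, cyclin A2 of S and G2 phase, had 2.51, 2.47, 3.08 and 2.42 in DMSO, 1.67, 1.72, 1.45 and 1.32 with PB, 1.76, 1.77, 1.96 and 1.58 with RA and 0.914, 0.884, 0.912 and 1.41 with PB+RA. None of the treated libraries overlapped DMSO, and PB+RA was lowest. The log2 difference was −0.77 ± 0.15 with PB (adjusted p = 0.00477; −0.54 and 0.0863 without the 4 libraries), and −1.37 ± 0.15 with PB+RA (adjusted p = 4.26e-06; −1.24 without them). With RA it was −0.57 ± 0.15 (adjusted p = 0.0194), and that call was lost without DMSO replicate 3 (−0.49), RA replicate 1 (adjusted p = 0.0517) or RA replicate 4 (adjusted p = 0.0618).

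Among replication genes, CHAF1B, a subunit of the histone chaperone that follows the fork, had 2.54, 2.25, 2.59 and 2.90 in DMSO, 1.28, 1.22, 0.67 and 1.08 with PB, 2.30, 2.92, 2.46 and 2.21 with RA and 0.625, 0.906, 0.572 and 1.48 with PB+RA. PB and PB+RA libraries stood below all DMSO libraries and RA libraries among them, with log2 differences of −1.31 ± 0.24 (adjusted p = 0.00286), −1.62 ± 0.24 (adjusted p = 6.39e-05) and −0.06 ± 0.24 (adjusted p = 0.923). GINS2, part of the replicative helicase, fell with PB+RA by 1.23 on the log2 scale (SE 0.15, adjusted p = 7.77e-06), and its PB call (−0.71 ± 0.15, adjusted p = 0.00611) was lost without the 4 libraries (−0.58, adjusted p = 0.0694). TYMS, thymidylate synthase, fell with PB (−1.08 ± 0.15, adjusted p = 0.000329) and PB+RA (−1.40 ± 0.15, adjusted p = 2.52e-06), and its RA difference (−0.59 ± 0.15, adjusted p = 0.0125) was no longer beyond 0.5 without DMSO replicate 3 (−0.49).

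Neighbouring start sites could differ. PCNA, the sliding clamp of DNA polymerase, has its canonical start site in a member at chr20:5096047-5101439 and an alternative one in another member, CDS2/PCNA, at chr20:5106258-5110383, which holds the canonical start site of CDS2; PCNA's own member and that of CDC25C were named after their values were seen. PCNA's own member had 2.26, 2.26, 2.57 and 2.08 in DMSO, 1.30, 1.22, 1.69 and 1.24 with PB, 2.00, 2.09, 1.53 and 1.66 with RA and 1.13, 1.11, 1.42 and 1.47 with PB+RA, and fell with PB (−0.76 ± 0.15, adjusted p = 0.00416) and with PB+RA (−0.85 ± 0.15, adjusted p = 0.000305). The CDS2/PCNA member overlapped DMSO in all groups, with 2.38, 2.55, 3.21 and 2.79 in DMSO and 2.80, 3.19, 2.16 and 2.61 with PB+RA, a difference of −0.03 ± 0.17 (adjusted p = 0.925). CDC25C showed less of a contrast, since its own member fell with PB+RA by 0.53 on the log2 scale (SE 0.16, adjusted p = 0.02), a call lost without DMSO replicate 3 (−0.48), DMSO replicate 4 (−0.42), PB+RA replicate 1 (−0.49) or PB+RA replicate 2 (−0.46), and CDC25C/FAM53C differed by 0.13 ± 0.18 (adjusted p = 0.612). Counting only members that hold the gene's canonical start site, 24 of 43 replication members (55.8%) and 25 of 43 mitosis members (58.1%) fell with PB+RA.

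Fewer than 50% of the members at G1 regulators and the E2F family were called. Of 26 such members 10 fell with PB (38.5%, against 4.56% of all regions tested), 1 fell with RA and 11 fell with PB+RA (42.3%, against 10.1%), and 4 and 8 with PB and PB+RA without the 4 libraries. E2F7, a repressive E2F, had 2.79, 2.53, 3.10 and 2.46 in DMSO, 0.919, 0.949, 1.28 and 1.02 with PB, 1.99, 1.60, 1.98 and 1.92 with RA and 0.689, 0.690, 0.654 and 1.14 with PB+RA. No treated library overlapped DMSO, with log2 differences of −1.39 ± 0.16 with PB (adjusted p = 0.000107) and −1.81 ± 0.16 with PB+RA (adjusted p = 6.38e-07). Its RA difference (−0.54 ± 0.16, adjusted p = 0.0381) was not called when any of 7 of the 8 DMSO and RA libraries was left out, with values from −0.46 to −0.57. E2F2, an activating E2F, fell with PB (−0.78 ± 0.12, adjusted p = 0.00102) and with PB+RA (−1.18 ± 0.12, adjusted p = 2.42e-06).

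CDKN1A, the CDK inhibitor p21, was the member of this list that rose. It had 0.662, 0.666, 1.12 and 1.11 in DMSO, 0.710, 0.748, 0.770 and 0.819 with PB, 1.64, 1.71, 1.56 and 1.53 with RA and 1.32, 1.42, 0.788 and 1.44 with PB+RA. All RA libraries stood above DMSO, and the log2 difference was 0.90 ± 0.19 (adjusted p = 0.0035). With PB+RA it was 0.49 ± 0.19 (adjusted p = 0.062), and 0.69 (adjusted p = 0.00527) without PB+RA replicate 3, which alone overlapped DMSO. It was also called without DMSO replicate 3 or 4 (0.61 each).

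**Figure D5:**
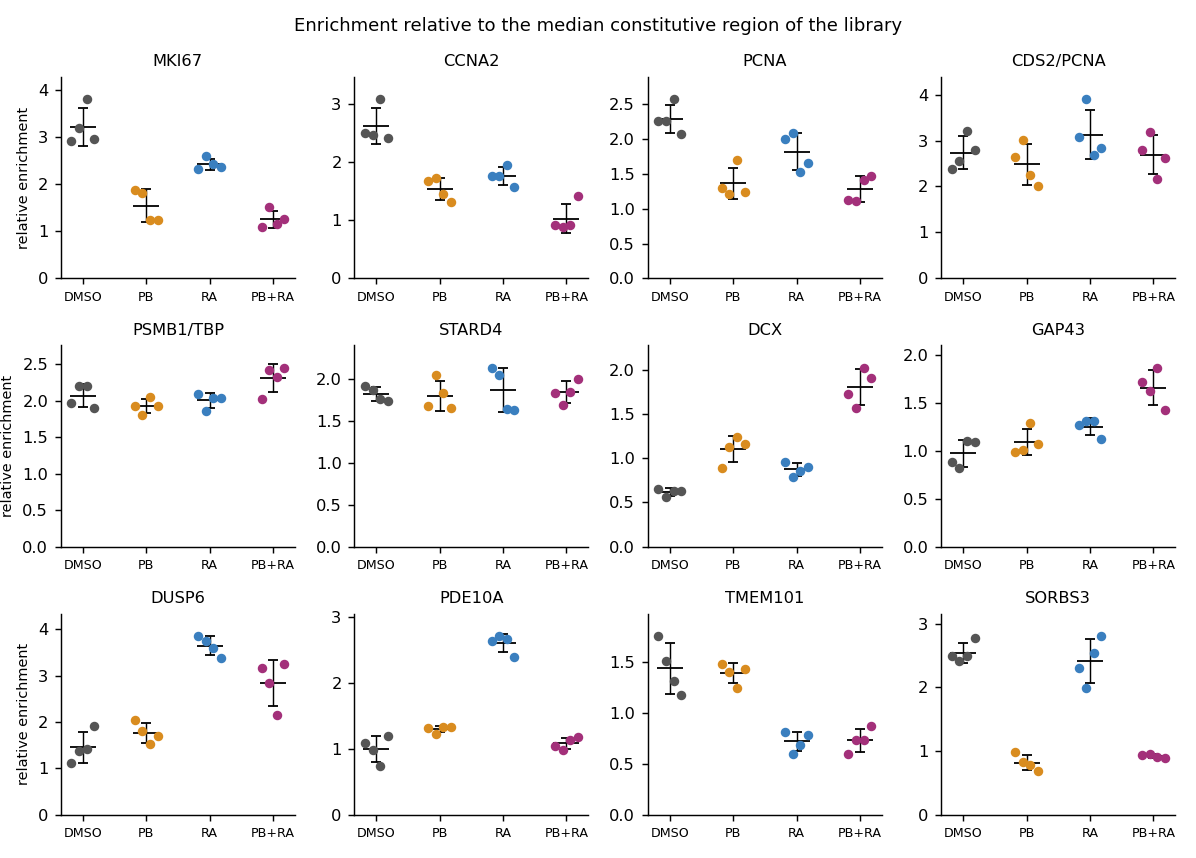
Relative enrichment in each library (points; 1 is the median constitutive region of that library) with mean ± SD (n = 4) for 12 members, each panel starting at 0. MKI67 and CCNA2 are lower in every treated library than in any DMSO library, least so with RA, and PCNA is lower with PB and PB+RA. CDS2/PCNA, PSMB1/TBP and STARD4 overlap between groups, and DCX and GAP43 are highest with PB+RA. DUSP6 is higher with RA and PB+RA, PDE10A is highest with RA alone, TMEM101 is lower with RA and PB+RA, and SORBS3 is lower with PB and PB+RA.

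The largest falls with PB were at SORBS3 (a vinculin-binding adaptor), GAS1 (a membrane protein linked to growth arrest and hedgehog signalling), ADAMTS2, TMEM63A, LINGO1, KCP, CHAF1B and XKR5, and each was also called lower with PB+RA. The SORBS3 member holds an alternative start site only. It had 2.49, 2.42, 2.49 and 2.77 in DMSO, 0.984, 0.834, 0.777 and 0.687 with PB, 2.31, 2.00, 2.53 and 2.81 with RA and 0.943, 0.956, 0.911 and 0.891 with PB+RA. PB and PB+RA libraries lay far below DMSO and RA libraries among them, with log2 differences of −1.64, −1.46 and −0.09 (SE 0.13 each, adjusted p = 5.86e-07, 6.34e-07 and 0.769). GAS1 had 1.88, 1.81, 2.30 and 1.59 in DMSO and 0.689, 0.667, 0.772 and 0.729 with PB, a fall of 1.40 on the log2 scale (SE 0.16, adjusted p = 6.45e-05). The call at LINGO1 was lost without the 4 libraries (−1.15, adjusted p = 0.0823, against −1.09 and 0.019), and the other 7 were kept.

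The largest increases with PB were at CLVS1, a lipid-binding protein of neurons, FGF20, a fibroblast growth factor, DLG2, a scaffold of the postsynaptic density, DCX, doublecortin, VGLL4, FBXO38, CCDC184 and PLCXD3. In 7 of the 8, all but CCDC184, every DMSO library was below the median constitutive region. CLVS1 had 0.761, 0.582, 0.724 and 0.813 in DMSO, 1.55, 1.64, 1.17 and 1.16 with PB, 1.04, 0.939, 0.985 and 0.974 with RA and 1.26, 1.54, 1.50 and 1.39 with PB+RA. PB and PB+RA libraries had the higher values, at 0.93 ± 0.14 (adjusted p = 0.000519) and 0.99 ± 0.14 (adjusted p = 3.31e-05) on the log2 scale. FGF20 had 1.46, 1.72, 1.31 and 1.21 with PB beside 0.851, 0.689, 0.906 and 0.797 in DMSO (0.80 ± 0.13, adjusted p = 0.00125) and differed by 0.49 ± 0.13 with PB+RA, just short of the fold asked for (adjusted p = 0.00802) but past it when DMSO replicate 1 or 3 or PB+RA replicate 1 or 2 was left out (0.51 to 0.55). The call at PLCXD3 was lost without the 4 libraries (0.50, adjusted p = 0.0843, against 0.61 and 0.00999).

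Among the members with the largest increases with RA, DUSP6, a phosphatase that switches off ERK, had 1.12, 1.37, 1.43 and 1.91 in DMSO, 2.05, 1.82, 1.52 and 1.71 with PB, 3.86, 3.76, 3.59 and 3.39 with RA and 3.16, 2.84, 2.14 and 3.25 with PB+RA. RA and PB+RA libraries all exceeded DMSO, with log2 differences of 1.35 ± 0.17 (adjusted p = 3.67e-05) and 0.97 ± 0.17 (adjusted p = 0.000261), whereas PB gave 0.30 ± 0.17 (adjusted p = 0.248). SYT17, a synaptotagmin, had 0.710, 0.551, 1.14 and 0.846 in DMSO, 1.89, 2.15, 2.07 and 1.64 with RA and 3.39, 3.84, 1.70 and 3.51 with PB+RA, or 1.30 ± 0.23 (adjusted p = 0.000911) and 1.92 ± 0.23 (adjusted p = 8.44e-06). MOXD1, a monooxygenase related to dopamine beta-hydroxylase, differed by 1.39 ± 0.22 with RA (adjusted p = 0.000361), and PDZRN3, HGF, DLG2, PDE10A and THSD4 were also among the 8.

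The members with the largest falls with RA were at FHL2, FLCN, TMEM101, KCNQ1, ST8SIA2, SYNGR4, CCT3/RHBG and KCND3, and 5 of them (FHL2, FLCN, TMEM101, KCNQ1 and SYNGR4) hold only alternative start sites. TMEM101 had 1.75, 1.51, 1.31 and 1.17 in DMSO, 1.48, 1.40, 1.25 and 1.43 with PB, 0.816, 0.600, 0.681 and 0.778 with RA and 0.593, 0.732, 0.732 and 0.867 with PB+RA. RA and PB+RA libraries lay below all DMSO libraries and PB libraries among them, at −0.99, −0.97 and −0.04 (SE 0.14 each, adjusted p = 0.000147, 5.85e-05 and 0.899). FLCN, the tumour suppressor folliculin, fell by 1.17 on the log2 scale with RA (SE 0.14, adjusted p = 1.99e-05) and by 1.16 with PB+RA (adjusted p = 7.14e-06). CCT3/RHBG, counted with the chaperonin genes through an alternative start site of CCT3, fell with RA (−0.78 ± 0.16, adjusted p = 0.00319), whereas the member with the canonical CCT3 start site, CCT3/TSACC, differed by −0.12 ± 0.17 (adjusted p = 0.75).

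Some members at axon and neurite genes rose with PB+RA, and most were not called. The 36 such members came from 26 genes, so some genes had more than 1. With PB+RA 10 rose (27.8%, against the 7.71% of all regions tested) and 4 fell (11.1%, against 10.1%). With RA 3 rose and 1 fell, and with PB 1 and 0. Without the 4 libraries the PB+RA counts were again 10 and 4, and with centring within GC classes 8 and 4. Of the 23 that hold the gene's canonical start site 6 rose and 3 fell (13.0%) with PB+RA. All 4 PB+RA libraries lay above all 4 DMSO libraries in 7 of the 36 (against 11.7% of all). DCX, a microtubule-binding protein of migrating neurons on the X chromosome, had 0.657, 0.557, 0.633 and 0.628 in DMSO, 0.890, 1.13, 1.24 and 1.16 with PB, 0.963, 0.783, 0.860 and 0.901 with RA and 1.73, 1.57, 2.03 and 1.91 with PB+RA. All treated libraries stood above DMSO and all PB+RA libraries above those of either drug, and the log2 differences from DMSO were 0.83 ± 0.12 with PB (adjusted p = 0.000648) and 1.54 ± 0.12 with PB+RA (adjusted p = 1.97e-07). With RA it was 0.50 ± 0.12 (adjusted p = 0.0108), at the fold limit, and fell short of it without DMSO replicate 2 (0.45), RA replicate 1 (0.46) or RA replicate 4 (0.49).

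GAP43, a growth cone protein, had 0.882, 0.819, 1.10 and 1.09 in DMSO and 1.71, 1.63, 1.87 and 1.43 with PB+RA (0.78 ± 0.13, adjusted p = 0.000241). KIF5A, an axonal kinesin, had 1.22, 1.29, 1.33 and 1.35 in DMSO and 2.17, 1.97, 2.12 and 2.20 with PB+RA (0.70 ± 0.12, adjusted p = 0.000212). Neither was called with PB or RA alone, and at both genes all PB+RA libraries exceeded all DMSO libraries. NEFH, the heavy neurofilament chain, moved the other way, with 1.17, 1.55, 1.20 and 1.39 in DMSO and 0.711, 0.741, 0.804 and 0.874 with RA (−0.76 ± 0.12, adjusted p = 0.000251). Of 27 members at synaptic vesicle and secretion genes 2 rose and 2 fell with PB+RA (7.41% each, against 7.71% and 10.1% of all regions tested); SCG5, a secretory granule chaperone, rose with PB+RA (1.16 ± 0.18, adjusted p = 9.9e-05).

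The largest falls with PB+RA that are not yet named were at WT1 and GLI2, both developmental transcription factors, ELMO1, an activator of Rac, IRX6 and ZFPM2. GLI2 had 2.01, 1.98, 2.24 and 1.85 in DMSO, 1.39, 1.37, 1.07 and 0.993 with PB, 1.21, 1.23, 1.29 and 1.49 with RA and 0.629, 0.764, 0.704 and 0.695 with PB+RA. No treated library reached DMSO, and PB+RA libraries were below those of either drug. The log2 differences were −0.76, −0.63 and −1.53 (SE 0.13 each, adjusted p = 0.00206, 0.00313 and 3.71e-07), and the PB call was lost without the 4 libraries (−0.49, adjusted p = 0.0629). The largest increases with PB+RA, besides SYT17, PDZRN3, DLG2, DCX and DUSP6, were at PLPP4, MYH15 and DPYSL3, the last a neurite-growth protein whose member holds an alternative start site only (1.05 ± 0.20, adjusted p = 0.000529).

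Lists of cell identity were only partly covered. Of the 19 genes of the adrenergic core circuit 12 lay only in regions over the width limit and 4 were members. Of these 4 members 1 fell with PB (25%, against 4.56% of all regions tested). With RA 1 rose (25%, against 4.03%) and 2 fell (50%, against 3.21%), and with PB+RA 2 fell (50%, against 10.1%). Without the 4 libraries that stood apart, 2 again fell with RA and 2 with PB+RA. TBX20, a T-box transcription factor, had 2.01, 2.40, 2.94 and 2.76 in DMSO, 2.10, 1.83, 2.14 and 2.25 with PB, 1.47, 1.52, 1.77 and 1.43 with RA and 1.29, 1.32, 1.55 and 1.71 with PB+RA. All RA and PB+RA libraries lay below DMSO, and PB libraries overlapped it. It fell with RA (−0.70 ± 0.14, adjusted p = 0.00321) and with PB+RA (−0.78 ± 0.14, adjusted p = 0.000488). DACH1 and SOX11 were called in a single comparison each, DACH1 higher with RA (0.62 ± 0.19, adjusted p = 0.0413) and SOX11 lower with PB (−0.54 ± 0.16, adjusted p = 0.0364). These calls were lost when single libraries were left out, DACH1 without any of DMSO replicates 1 to 4 (0.56 to 0.65) or RA replicates 1 and 2 (0.56 and 0.53), and SOX11 without DMSO replicates 2, 3 or 4 (−0.54, −0.57 and −0.50) or PB replicates 3 or 4 (−0.45 and −0.44).

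Of 30 genes of the mesenchymal state 15 lay in members, 2 only in wider regions, 9 only in other start-site regions and 4 in none. Of their 17 members 5 fell with PB (29.4%, against 4.56% of all regions tested) and 6 with PB+RA (35.3%, against 10.1%), 3 and 4 without the 4 libraries, and 2 and 2 with centring within GC classes. AXL, a receptor tyrosine kinase whose member holds an alternative start site only, had 1.31, 2.01, 2.02 and 1.56 in DMSO and 0.962, 0.966, 0.800 and 0.999 with PB+RA (−0.87 ± 0.14, adjusted p = 0.00013). WWTR1, the Hippo pathway coactivator TAZ, had 0.937, 0.925, 0.886 and 0.958 in DMSO and 0.585, 0.599, 0.690 and 0.700 with PB+RA (−0.53 ± 0.13, adjusted p = 0.00385). Both genes were lower in every PB+RA library than in any DMSO library. Of 8 members at retinoid response genes 1 rose with RA (DUSP6, 12.5%, against 4.03% of all regions tested). With PB+RA 1 of them rose and 1 fell (12.5% each, against 7.71% and 10.1%). Of 11 at AP-1 and immediate early genes 2 fell with PB and 2 with PB+RA (18.2% each, against 4.56% and 10.1%) and 1 rose with RA; without the 4 libraries 1 and 1 fell, and with centring within GC classes none did. Of 17 at cholesterol synthesis genes 3 fell with PB+RA (17.6%), 2 without the 4 libraries and 1 with centring within GC classes.

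Of 439 members at zinc finger genes 15 fell with PB (3.42%, against 4.56% of all regions tested) and none rose, but the falls came down to 1 without the 4 libraries, 4 after quantile normalization and 1 without centring. With PB+RA 9 rose (2.05%, against 7.71%) and 23 fell (5.24%, against 10.1%), a split that turned to 15 and 12 without the 4 libraries, to 22 and 11 with centring within GC classes, to 27 and 12 after quantile normalization and to 14 and 9 without centring.

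Whether the effect of PB differed with RA present was tested as an interaction, and a single member was called, PDE10A, a phosphodiesterase of cyclic nucleotides (none higher, against 0.00377% of all regions tested, and 1 lower, against 0.0113%). It had 1.09, 0.986, 0.737 and 1.19 in DMSO, 1.32, 1.23, 1.33 and 1.33 with PB, 2.63, 2.71, 2.67 and 2.39 with RA and 1.04, 0.987, 1.13 and 1.17 with PB+RA. All RA libraries stood above every other library, and PB+RA libraries lay among DMSO. The log2 difference was 1.40 ± 0.13 with RA (adjusted p = 6.77e-06), 0.40 ± 0.13 with PB (adjusted p = 0.0605) and 0.13 ± 0.13 with PB+RA (adjusted p = 0.502), and the interaction was −1.67 ± 0.19 (SE, limma adjusted p = 0.000496). The member holds an alternative start site only. For the other members, a count of calls that differs between PB and PB+RA or RA and PB+RA is not a tested difference.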

How the data were processed

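H3K27ac ChIP-seq (antibody ab4729) was made from 16 cultures, 4 per group, with 16 input libraries for which no separate values were used here. The titles of the samples gave group and replicate number. The submitters' processing notes name fastp 0.12.4 for trimming, Bowtie2 2.4.4 for alignment (hg19) and MACS2 2.2.7.1, with which the authors called broad peaks library by library; per the methods peaks were called against input, and DiffBind 3.4 was run on regions that had peaks in 2 or more libraries of any group. The deposited peak lists give each peak a score (not used), the authors' fold enrichment over input (a ratio), the authors' −log10 p and the authors' −log10 q, the last used only to filter peaks. The deposited comparison tables give the authors' mean log2 concentration of each group, normalized by them and without replicates, which was used as a description with no test. They also hold the authors' mean log2 concentration over groups, their log2 fold and the authors' p-value and FDR; these were not used.

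Start sites came from GENCODE release 44 on GRCh37 (78714 protein-coding start sites, 24 of 31 sequence names matched, 16 regions left out). Coordinates of regions are as deposited. For each library, the fold enrichment of the peaks over a region was averaged by overlapped bases, taken as log2 and centred on the library's median over 26508 regions with a peak in all libraries. No pseudocount was needed. limma 3.58.1 (R 4.3.3, eBayes with trend and robust) fitted all 4 groups together, with Benjamini-Hochberg adjustment over all 26508 regions; the interaction was (PB+RA minus RA) minus (PB minus DMSO). The fit was tested on simulated data with noise drawn independently for each region and library. Such data hold no shift shared by the regions of a library, so the test does not bear on such shifts. Values are enrichment within called peaks, which depends on depth and on the input; read depth is unknown, and a change of total acetylation would be removed by centring. Sequences and base composition were read from GRCh37. Python 3.11.15 with pandas 2.3.3, numpy 2.4.6 and scipy 1.17.1 was used.

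The members, gene lists and tests were chosen with earlier results of these data known. Named members were, per treatment, the 8 largest concentration differences in each direction among members called the same way with no overlap of libraries, the 6 highest and the 6 most even members, up to 4 per gene list and the members with the largest interaction. The housekeeping list was kept in full. Some named members are not reported here. Alternatives were other scalings, peak filters, widths, start sites and a block for the replicate number, and leaving out each library.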

Additional observations from a re-analysis of the deposited data

Results flagged for a closer look

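Within groups of 4 libraries, 224 combinations of a named member and a group were examined for a single library whose gap to its nearest neighbour took most of the group's range, and chance picks out about 1 in 20. At 8 of them this share passed the critical value. For CCNA2 it was 0.870 in DMSO, where replicate 3 was high at 3.08 beside 2.42 to 2.51, and 0.942 with PB+RA, where replicate 4 was high at 1.41 beside 0.884 to 0.914. For E2F7 it was 0.830 with RA, where replicate 2 was low at 1.60 beside 1.92 to 1.99, and 0.927 with PB+RA, where replicate 4 was high at 1.14 beside 0.654 to 0.690. For CDC25C/FAM53C it was 0.892 with PB+RA and for SOX11 0.833 with PB+RA, in both of which replicate 3, one of the libraries that stood apart, was the low one. For PDE10A it was 0.832 with PB and for FGF20 0.868 with RA. The calls at CCNA2 and E2F7 with PB+RA were also made when the library in question was left out.

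The effect of PB at PDE10A differed with RA present, by −1.67 on the log2 scale in the interaction test of limma (adjusted p = 0.000496; −1.52 and 0.003414 without the 4 libraries that stood apart). All RA libraries lay between 2.39 and 2.71 and all PB+RA libraries between 0.987 and 1.17.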

How the results depend on the processing

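Counts of members called higher and lower are given in that order. The count that fell with PB was the least stable, at 425 to 1539 when single libraries were left out; the others ranged from 41 to 62 (rose with PB), 93 to 158 and 118 to 242 (RA), and 234 to 352 and 1174 to 1988 (PB+RA), and the interaction stayed at 1. Without PB replicates 3 and 4 and PB+RA replicate 3, 384 fell with PB, and without DMSO replicate 3 as well 259 fell with PB and 395 rose with PB+RA. Both sets were chosen after seeing the data, on the enrichment of members itself. With GC-class centring the counts were 158 and 448 with PB and 515 and 949 with PB+RA, with 2 interactions. Quantile normalization gave 162 and 536 with PB, 120 lower with RA and 452 higher with PB+RA. Without centring 33 and 307 were called with PB, 81 rose with RA and 852 fell with PB+RA. Enrichment times the share under peaks gave 249 higher with PB, 452 and 482 with RA, 997 higher with PB+RA and 9 interactions; under it LRR1/RPS29 turned from a decrease to an increase with PB (0.54, adjusted p = 0.0447). With no fold minimum 85 rose with PB and 413 with PB+RA. With peaks of −log10 q of at least 5 the counts were 121 and 185 with PB, 59 and 28 with RA and 593 lower with PB+RA. Asking for peaks over at least 50% of the region left 93 lower with PB, 28 and 11 with RA, 147 and 254 with PB+RA and 0 interactions. Canonical start sites alone gave 25 higher with PB, 167 higher with PB+RA and 0 interactions, and widths under 6000 bases 35 higher with PB, 95 and 119 with RA and 0 interactions; these last sets hold fewer members.

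The groups share replicate numbers. Deviations of same-numbered libraries from their group means correlated at −0.2568 to 0.5985, above 0.1 in 16 of 24 pairs and in 5 of the 12 that include DMSO. The numbers were to be taken as pairing the cultures only if every pair of a comparison exceeded 0.1, which none of the 3 comparisons with DMSO met; 5 of 16 libraries correlated best, on average, with their own number. With the replicate number as a block 1571 members fell with PB and 2 interactions were called, and with a block for replicates 1 and 2 against 3 and 4, added after seeing the data, 1811 and 2.

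On group means, the median difference over members with GC-class centring was −0.035 (PB), −0.059 (RA) and, a reversal, 0.18 (PB+RA); 6.66% of members were then over 0.5 and 8.31% under −0.5 with PB, 7.92% under with RA, and 25.6% over and 10.9% under with PB+RA. Shifting groups to the same median gave −0.34 with RA (25.6% under) and −0.34 with PB+RA (5.19% over). Beyond 1 in place of 0.5, 0.269% were over and 7.55% under with PB, 1.23% and 1.83% with RA, and 2.30% and 8.33% with PB+RA. Peaks of −log10 q of at least 5 gave medians of −0.33, −0.21 and −0.10, with 0.804% over with PB and 2.11% over with RA. Peaks over at least 50% of the region gave −0.30, −0.19 and −0.053, with 0.660% over with PB, 1.43% over and 5.91% under with RA and 13.6% under with PB+RA. Canonical start sites gave −0.37 and 1.15% over with PB, and widths under 6000 bases −0.12 with PB+RA. Where no construction shows it, the cause of these changes was not tested.

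For named members, 88 called differences had 2538 alternative values, of which 2405 were called the same way, 132 were not called and 1 was reversed; of 2175 alternative values for 74 uncalled differences, 51 were called. Unknown depth, 4 libraries per group and peak calling in each library limit all values: a member with weak enrichment near the calling threshold is measured over fewer bases, and only regions with a peak everywhere were tested.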
